A study of Mus musculus with 2 samples.

Results

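The genes followed here, 10 in number, belong to the erythroblastic island, and they were traced through the mouse fetal liver: the adhesion genes Vcam1, Itga4, Itgb1, Icam4, Maea and Siglec1 and the engulfment genes Dnase2a, Mertk, Axl and Gas6. They were taken by symbol, and all 10 were found once among the 27998 genes measured. The material was 1 wild-type C57BL/6 liver (C57BL/6J in the study's methods) of embryonic stage E12.5, dissociated with enzymes and sorted to remove debris, dead cells and doublets, and then run as 2 technical replicates on a droplet platform that counts unique molecular identifiers (UMIs). No treatment, mutant or second animal was compared here. The deposited annotation sorted the cells into hematopoietic stem and progenitor cells (spelled HPSC), erythroid-committed progenitors (Ery), erythroblasts (Eryb), primitive yolk sac-derived erythroblasts (EryP), megakaryocytes (Mk), granulocytes (G), monocytes and Kupffer cells (Mo/KC), endothelial cells (EC) and hepatoblasts (Hepa).

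Erythroblasts mature in the fetal liver and bone marrow in islands, clusters of red cell precursors around a central macrophage. On the macrophage side VCAM1 is the counter-receptor of the α4β1 integrin (Itga4 with Itgb1) on erythroblasts, ICAM4 on erythroblasts binds αv integrins, MAEA is made by both partners, and SIGLEC1 marks island macrophages of the adult. The expelled nucleus is then engulfed through receptors such as MERTK and AXL, for which GAS6 is the bridging ligand, and its DNA is digested by the lysosomal enzyme DNASE2A.

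The kept cells numbered 5480 in library 1 and 5057 in library 2, with 51969226 and 62738015 UMIs and medians of 6261 and 9774 UMIs per cell. The smallest cell held 504 UMIs in library 1 and 4387 in library 2, and 31 barcodes occurred in both libraries among the 10537 cells. Mo/KC had 56 and 58 cells (678685 and 885398 UMIs) and Eryb 3820 and 3612 (24261794 and 35485868). Of 12 Mo/KC marker genes, 11 had their highest level in Mo/KC in both libraries, as did 6 of 6 EC markers in EC and 4 of 4 Hepa markers in Hepa. Globin genes took 36.7% of the UMIs of Eryb in library 1 and 59.2% in library 2, against 1.16% and 3.72% in Mo/KC. A level is given as counts per 1000000 UMIs (CPM) of a group's summed UMIs in 1 library, with an exact 95% Poisson interval. Intervals cover counting error only, and with a single liver no test between animals was possible.

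The genes lie on several chromosomes of GRCm38. Vcam1 lies on chromosome 3 (116109949 to 116129688, minus strand), Siglec1 on chromosome 2 (131069220 to 131086765, minus strand), Maea on chromosome 5 (33335509 to 33373296, plus strand) and Axl on chromosome 7 (25757273 to 25788705, minus strand). Itga4 (79255426 to 79333123) and Mertk (128698956 to 128802894) lie on the plus strand of chromosome 2. Chromosome 8 carries Dnase2a (84908560 to 84922915, plus strand), Itgb1 (128685654 to 128733200, plus strand) and Gas6 (13465374 to 13494490, minus strand). Icam4 is a short gene on chromosome 9 (21029373 to 21030595, plus strand). Vcam1, Itga4, Dnase2a, Mertk and Gas6 each overlap a gene on the opposite strand that was counted too (Gm43109, Cerkl, Mast1, Gm14011 and Tmem255b). The study's methods name Cell Ranger for the counting and do not state how strand was used. The reads of these pairs were not examined here.

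Promoters of 7 of the 10 genes were found in RefSeq (GRCm38.p6, 250 bases before to 50 after the start), and those of Vcam1, Maea and Siglec1 were not. They were searched on both strands for AGATAA and TGATAA (bound by GATA factors), CCACACCC (bound by KLF1) and GAGGAAGT (bound by PU.1). Matches were found in the promoters of the adhesion genes Itga4 and Icam4 and in none of the other 5 (Itgb1, Dnase2a, Mertk, Axl and Gas6). The 30 bases around each match are shown, with the match in capitals, because these are the promoters with a match.
Itga4, chr2:79255356-79255385, plus strand: gagccactgcaCCACACCCaggaccccacc
Icam4, chr9:21029377-21029406, plus strand: cagggtgccttcTTATCTcctgcggccagc
The Itga4 match is the KLF motif, 59 bases before the start. The Icam4 match is AGATAA on the other strand, 43 bases before the RefSeq start and inside the gene as drawn by GENCODE. Of all 32851 promoters in the table, 3.56% held CCACACCC, 11.2% AGATAA, 9.05% TGATAA, and 1052 of them held GAGGAAGT. A match describes the letters of the window, not a site.

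Mo/KC and Eryb, the groups that hold the partners of an island, differed most in Axl, Vcam1 and Gas6 on the macrophage side and in Icam4 on the erythroid side. Of the 10 genes, 7 passed the filter of a mean of 10 CPM over the 4 values. A gene was called when it differed at least 2-fold the same way in both libraries. Vcam1, Itgb1, Maea, Dnase2a and Axl (5 genes) were called higher in Mo/KC, where 47.7% of the 6075 genes tested were. Icam4 alone was called lower, as were 7.19% of all genes. Itga4 was not called, and Siglec1, Mertk and Gas6 failed the filter. The median log2 ratio of the 7 was 1.99, against 1.25 over all genes tested. Vcam1 and Axl, 2 of the 7, were under 10 CPM in Eryb of both libraries and passed the filter through Mo/KC, so a difference was built into their passing.

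**Figure D1:**
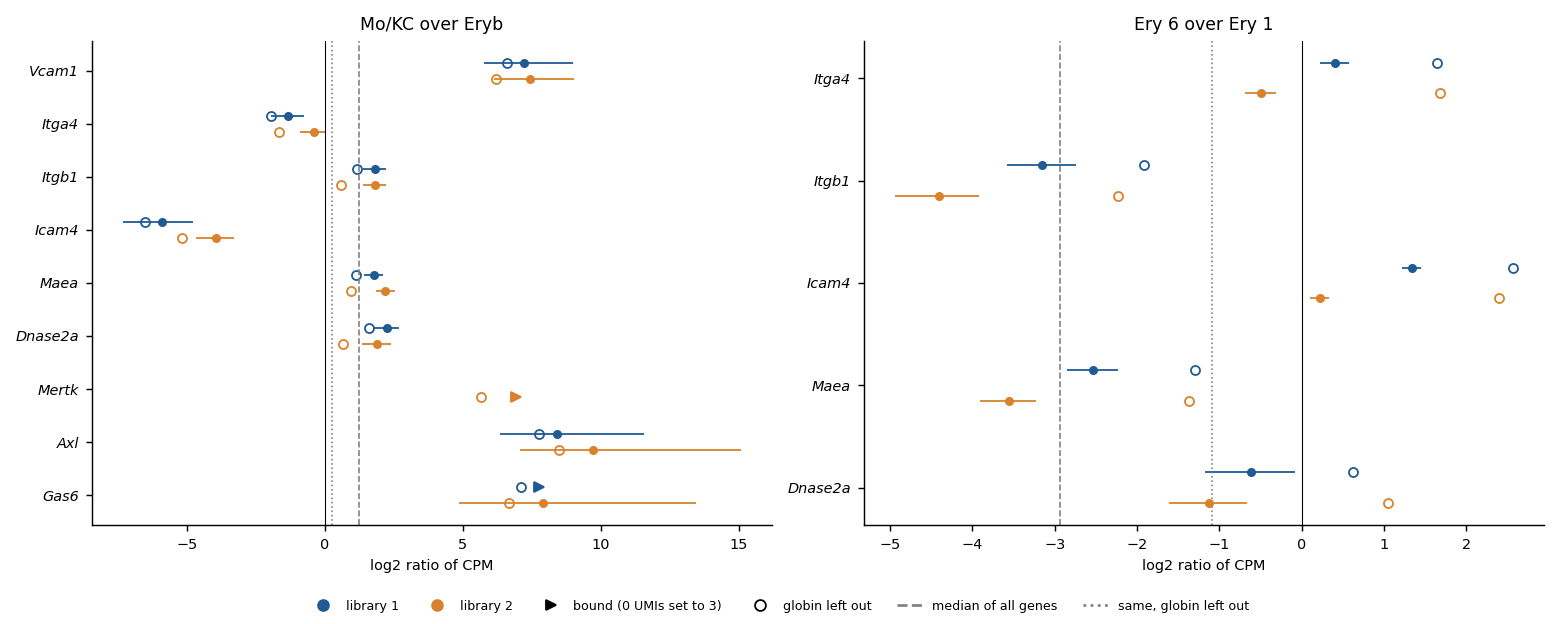
Log2 ratio of CPM of the genes between Mo/KC and Eryb (left) and between Ery 6 and Ery 1 (right), with exact 95% intervals, each library on its own. Triangles are bounds where one group had 0 UMIs, open circles the ratios (beside a triangle, the bounds) with globin UMIs left out of the totals, and vertical lines the medians of all genes tested; Axl and Vcam1 lie far right of both medians in the left panel, and Icam4 far left.

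Globin UMIs bear on these calls, since they fill much of the total in Eryb. With globin left out of the totals, the median of all genes moved by -0.99 on the log2 scale, from 1.25 to 0.26. Then 28.5% of 6698 genes were called higher in Mo/KC and 16.7% lower. Vcam1 and Axl were then the 2 called higher. Itgb1 stood at 2.25-fold and 1.49-fold, Maea at 2.19-fold and 1.94-fold and Dnase2a at 3.03-fold and 1.58-fold, so each missed the call in library 2. Itga4 joined Icam4 as lower, 3.89-fold and 3.12-fold.

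**Figure D2:**
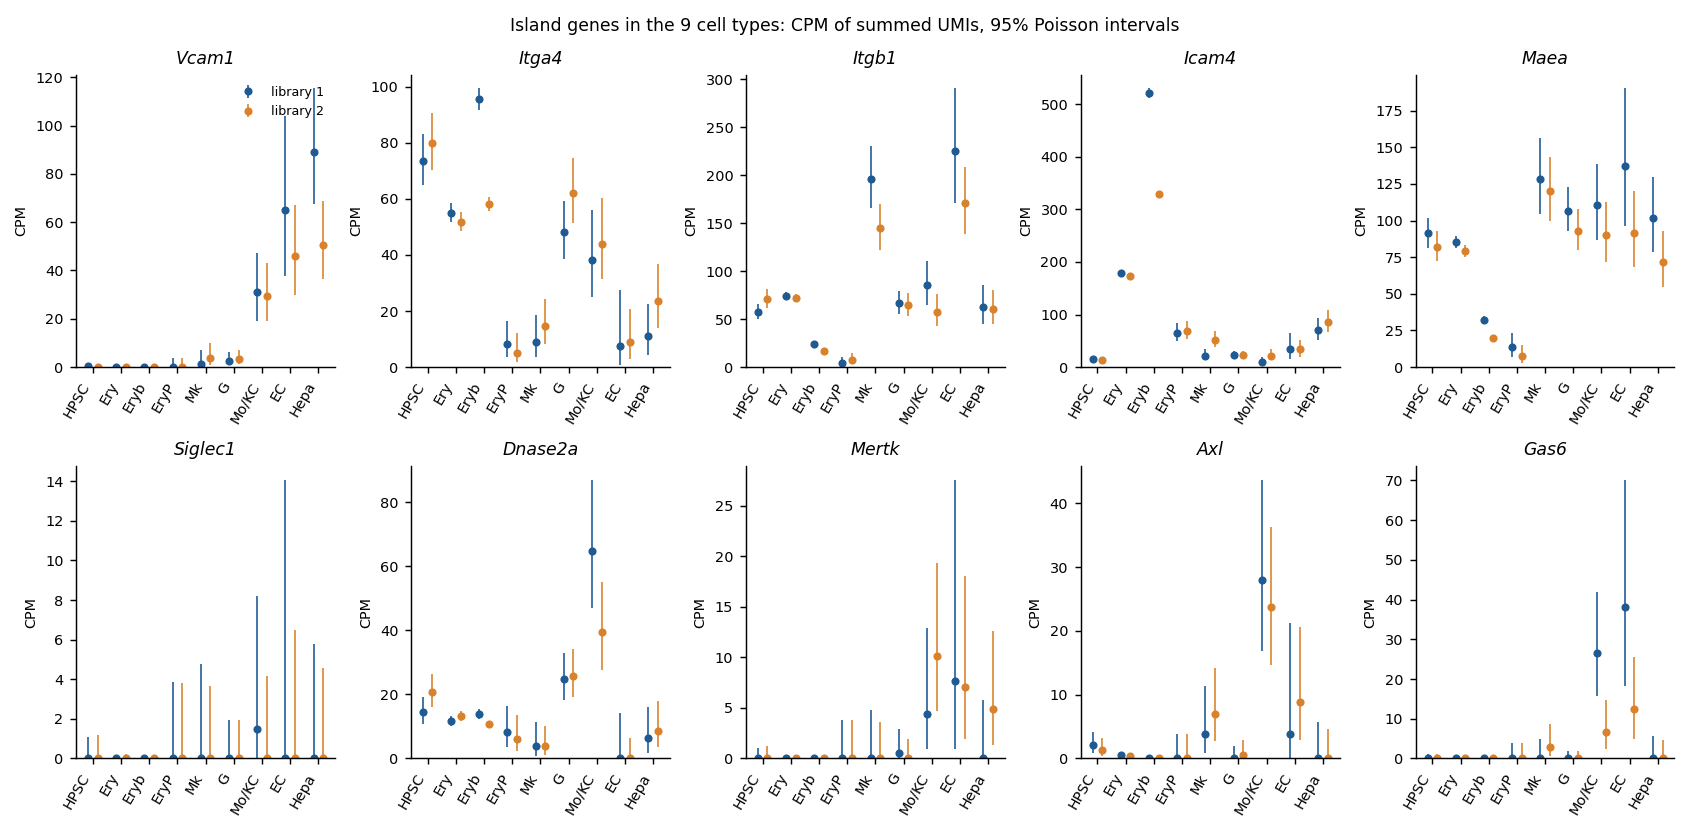
Level in CPM (vertical axis, from 0) of each of the 10 genes in the 9 cell types, library 1 in blue and library 2 in orange, with 95% Poisson intervals. Vcam1 peaks in Hepa and EC, Itga4 in HPSC and Eryb, Icam4 in Eryb, Dnase2a and Axl in Mo/KC, and Siglec1 has a single UMI.

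Vcam1, the adhesion receptor of the island macrophage, measured 30.9 CPM in Mo/KC of library 1 (19.2 to 47.3, 21 UMIs) and 29.4 CPM in library 2 (19.2 to 43.0, 26 UMIs). In Eryb it was at 0.206 and 0.169 CPM, from 5 and 6 UMIs. Mo/KC therefore stood 150-fold (55.1 to 510) and 174-fold (69.9 to 516) above Eryb. Taken over whole groups, the levels of Vcam1 were higher still outside the blood lineages. Hepa had 89.0 and 50.6 CPM and EC 64.9 and 45.9 CPM. Hepa lay above Mo/KC beyond counting error in both libraries (2.88-fold, 1.72 to 4.997, and 1.72-fold, 1.03 to 2.94), and EC in library 1 only. Hepa and EC did not differ beyond it. In Hepa, Reln and Cxcl12, fixed here as markers of mesenchymal and stellate cells, were read at 150 and 102 CPM and at 59.4 and 40.7 CPM. Of 7 mesenchymal markers 6 were detected there in each library, with sums of 244 and 148 CPM, made up mostly of Reln and Cxcl12. The other markers were at most 17.2 CPM in library 1 and 1.23 CPM in library 2. Col1a1 (40.3 and 57.2 CPM) and Dcn (27.3 and 35.5 CPM) were higher in Mk than in Hepa. Reln was also read in EryP, at 40.7 and 41.4 CPM. The part of mesenchymal cells in the Vcam1 level of Hepa was not tested. None of the EC or Hepa cells with a Vcam1 UMI had over 1000 CPM of the C1q genes described below.

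Itga4 encodes the α4 chain that binds VCAM1, and its level was spread over the blood lineages. In the order of the level over both libraries, HPSC had 73.6 and 80.0 CPM, Eryb 95.5 and 58.2, G 48.1 and 62.2, Ery 55.0 and 51.9 and Mo/KC 38.3 and 44.0. Lower levels were read in Hepa (10.9 and 23.5), Mk (9.09 and 14.8), EC (7.63 and 8.82) and EryP (8.35 and 5.18). Mo/KC stood above Hepa, the next group down, in both libraries. No neighbours above Mo/KC kept this order beyond counting error in both. HPSC and Eryb changed places, with Eryb highest in library 1 and HPSC in library 2. Free RNA held 58.3 and 63.3 CPM of Itga4. That was above the levels of G, Ery, Mo/KC, Hepa, Mk, EC and EryP in both libraries, and above Eryb in library 2. Here and below, a CPM in free RNA describes the make-up of that RNA. The part of free RNA in the UMIs of a cell was not tested. The Eryb level differed 1.64-fold between the libraries (1.54 to 1.74) on all UMIs. With globin left out, it was 151 and 143 CPM.

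Itgb1, the β1 chain shared by many integrins, was highest in EC (225 and 171 CPM) and Mk (196 and 145 CPM), which did not differ beyond counting error. Ery (74.6 and 72.1), Mo/KC (85.5 and 57.6), G (66.6 and 64.3), HPSC (57.4 and 71.0) and Hepa (62.5 and 60.5) formed a middle range. Eryb had 24.3 and 16.4 CPM, so that the call in Mo/KC was 3.51-fold in both libraries (2.64 to 4.61 and 2.58 to 4.68). EryP had the lowest level, 4.17 and 7.25 CPM. Free RNA held 52.7 and 37.8 CPM of Itgb1, above the levels of Eryb and EryP in both libraries.

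Icam4, a red cell adhesion molecule, had its highest level in erythroblasts. Eryb had 521 CPM in library 1 (512 to 530, 12633 UMIs) and 328 CPM in library 2 (322 to 334, 11653 UMIs), and 79.6% and 81.7% of its cells held a UMI. Ery followed at 178 and 173 CPM, apart in both libraries from Eryb above it and from Hepa, the next below it. Mo/KC had 8.84 CPM (3.24 to 19.2, 6 UMIs) and 21.5 CPM (12.9 to 33.5, 19 UMIs). Eryb thus exceeded Mo/KC 58.9-fold (27.1 to 161) and 15.3-fold (9.79 to 25.4). Icam4 also made up 208 and 173 CPM of free RNA, read from barcodes of 1 to 50 UMIs. Its levels in the non-erythroid groups, from 8.84 to 86.4 CPM, all lay below that of free RNA. So did those of EryP (64.7 and 69.4 CPM) and Ery, the latter only just in library 2 (173.3 against 173.5 CPM). Of the 9 types, Eryb alone had a higher CPM of Icam4 than free RNA in both libraries. The globin gene Hbb-bs was at 4736 and 15291 CPM in Mo/KC and at 8837 and 17759 CPM in Ery. In free RNA it was at 88863 and 167506 CPM. A CPM under that of free RNA therefore does not show that a level came from free RNA. Of the 25 Icam4 UMIs in Mo/KC, 12 lay in the 12 cells with over 5% globin UMIs (88.1 CPM, 45.5 to 154), and 13 in the other 102 (9.10 CPM, 4.85 to 15.6). The 5% limit was chosen after the values were seen, and the part of erythroid RNA in the Mo/KC level was not tested.

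Maea, an adhesion molecule of macrophages and erythroblasts and a subunit of the CTLH ubiquitin ligase, was read at similar levels in most groups. Mk had 129 and 120 CPM, EC 137 and 91.7, Mo/KC 111 and 90.4, G 107 and 92.8, HPSC 91.3 and 82.2, Hepa 102 and 71.6 and Ery 85.3 and 79.1. None of the neighbours in this order were apart in either library down to Ery. Eryb had 32.3 and 19.7 CPM and EryP 13.6 and 7.25 CPM, each apart from the group above it in both libraries. Mo/KC exceeded Eryb 3.42-fold (2.66 to 4.34) and 4.59-fold (3.59 to 5.79). Free RNA held 43.1 and 44.9 CPM of Maea, above the levels of Eryb and EryP in both libraries. A Maea UMI was found in 62.5% and 65.5% of Mo/KC cells.

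Siglec1 gave 1 UMI in all 10537 cells, in a Mo/KC cell of library 1 that also held Vcam1, Axl and Gas6. The count of 0 in the 58 Mo/KC cells of library 2 bears on cells with a UMI, not on cells expressing the gene. Such cells could make up 5.17% at 3 counts, and 6.16% at the upper Clopper-Pearson bound. No level or comparison can be drawn for this gene at this depth.

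Dnase2a was the only gene of the 10 that passed the filter over all 9 types and was highest in Mo/KC in both libraries, as were 7.32% of 6903 genes. Mo/KC had 64.8 CPM (47.1 to 87.0, 44 UMIs) and 39.5 CPM (27.5 to 55.0, 35 UMIs), and 55.4% and 41.4% of its cells held a UMI. G came next with 24.8 and 25.8 CPM, below Mo/KC beyond counting error in library 1 (2.61-fold, 1.69 to 4.02) but not in library 2 (1.53-fold, 0.962 to 2.41). Eryb had 13.7 and 10.6 CPM, 4.72-fold (3.37 to 6.48) and 3.73-fold (2.56 to 5.28) below Mo/KC. Free RNA held 13.7 and 10.2 CPM of Dnase2a, close to the Eryb level. EC had no Dnase2a UMI in either library. With 0 set to 3 UMIs per library, Mo/KC was 5.66-fold and 7.47-fold higher than EC.

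Axl, a receptor for GAS6, was highest in Mo/KC too, but failed the filter over 9 types. Mo/KC had 28.0 CPM (16.9 to 43.7, 19 UMIs) and 23.7 CPM (14.7 to 36.3, 21 UMIs). EC had 3.82 and 8.82 CPM, Mk 3.90 and 6.90 and HPSC 2.03 and 1.28. In Eryb 2 UMIs and 1 UMI were found, and the ratio of Mo/KC to Eryb was 340 (81.9 to 3007) and 842 (135 to 34807). The order of Mo/KC above EC held beyond counting error in library 1 only.

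Mertk, the other engulfment receptor, was sparse. Mo/KC had 4.42 CPM (0.912 to 12.9) from 3 UMIs and 10.2 CPM (4.65 to 19.3) from 9 UMIs, and EC 7.63 and 7.06 CPM from 2 and 4 UMIs. These did not differ beyond counting error. Hepa had 0 UMIs and then 4. None of the 7432 Eryb cells held a Mertk UMI, and in library 2 Mo/KC was 120-fold higher with 0 set to 3 UMIs.

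Gas6, the bridging ligand, was read in EC (38.2 CPM from 10 UMIs and 12.4 CPM from 7) and in Mo/KC (26.5 CPM from 18 UMIs and 6.78 CPM from 6). The Mo/KC level differed 3.91-fold between libraries (1.49 to 12.04), the EC level 3.09-fold (1.06 to 9.56), and 8 of the 18 UMIs of library 1 lay in 1 cell. EC and Mo/KC were not apart in either library. Over both libraries Eryb had 1 UMI, against 24 in Mo/KC.

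The Mo/KC cells were not of one kind in these genes. Cells were split, after their values had been seen, at 1000 CPM of C1qa, C1qb and C1qc, complement genes made by resident macrophages. In library 1, 24 cells lay above and 32 below. In library 2 the numbers were 16 and 42. Of the 114 cells, 10 lay between 500 and 2000 CPM, and 63 had no C1q UMI. The cells above the limit were shallower, with medians of 5860 and 8612 UMIs against 14213 and 17362. Because the split was made on cells of the same libraries, what follows is a description.

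All 47 Vcam1 UMIs of Mo/KC lay in the 40 cells above the C1q limit, 21 UMIs in 8 cells of library 1 and 26 in 9 cells of library 2. Their level was 110 CPM (68.0 to 168) and 154 CPM (100 to 225). Over all cells of their group, Hepa had 89.0 and 50.6 CPM and EC 64.9 and 45.9 CPM. Setting these side by side is a description, as the limit was set after the values were seen. The 74 remaining cells, with 1203635 UMIs in sum against 360448, had none, which puts the first set at least 17.8-fold and 36.7-fold higher. The 24 Gas6 UMIs were divided in the same way, 18 and 6 UMIs above the limit and 0 below. Axl was at 73.2 CPM above the limit against 10.3 below in library 1 (7.14-fold, 2.43 to 25.3) and at 59.1 against 15.4 CPM in library 2 (3.85-fold, 1.47 to 9.98). Mertk counted 8 UMIs above and 4 below over both libraries (6.68-fold, 1.79 to 30.3). In library 1 these were 2 and 1 UMIs, too few for a ratio, and library 2 gave 8.47-fold (1.81 to 52.3).

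The other genes of the list were read on both sides of the limit. Itga4 had 41.6 CPM above and 41.5 below over both libraries (ratio 1.002, 0.522 to 1.81), Itgb1 80.5 and 66.5 (1.21, 0.763 to 1.87) and Maea 86.0 and 103 (0.835, 0.544 to 1.25). By library the ratios of these genes went opposite ways, and each interval included 1. They were 1.35 and 0.770 for Itga4, 1.56 and 0.673 for Itgb1 and 0.637 and 1.06 for Maea. Dnase2a had 80.5 and 41.5 CPM (1.94, 1.18 to 3.12), with an interval above 1 in library 2 only. Icam4 too went opposite ways in the libraries, with 5.23 CPM above and 10.3 below in library 1 (ratio 0.510, 0.0108 to 4.56, from 1 and 5 UMIs) and 65.0 and 11.2 CPM in library 2 (5.82, 2.13 to 16.7). In library 2, 7 of the 11 Mo/KC cells with over 5% globin lay above the limit, and in library 1 the 1 such cell lay below it. At least 1 of Vcam1, Siglec1, Mertk, Axl and Gas6 was found in 27 of the 40 cells above the limit and in 14 of the 74 others, and at least 2 in 11 and 1. Vcam1 and Gas6 were found together in 5 cells, 29.4% of the cells with Vcam1 and 62.5% of those with Gas6.

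**Figure D3:**
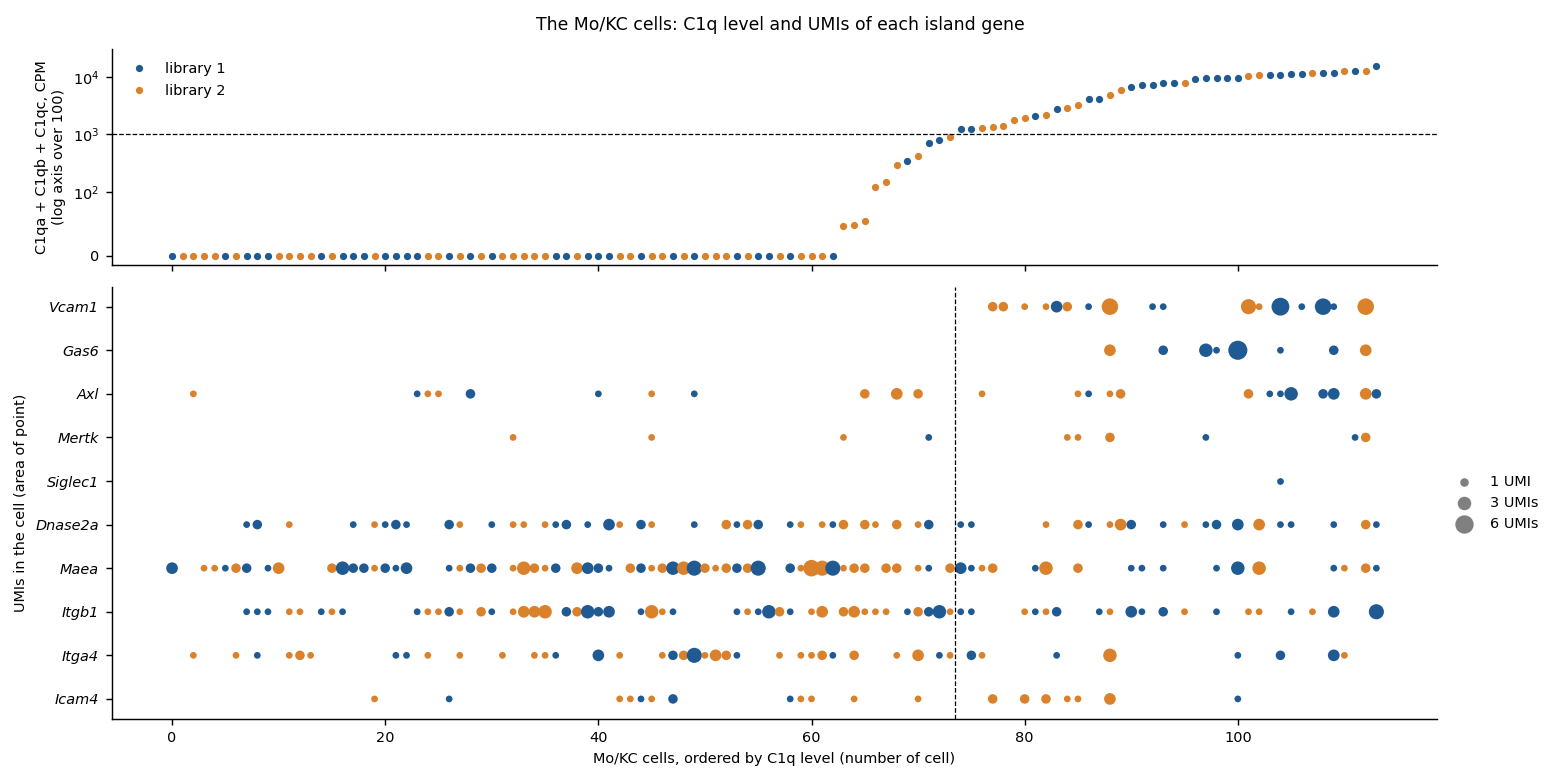
The 114 Mo/KC cells in order of their C1q level (upper panel, CPM, log axis above 100, dashed line at 1000 CPM), and the UMIs of each gene in the same cells (lower panel, point area), library 1 in blue and library 2 in orange. Vcam1 and Gas6 points lie only right of the limit, and those of Maea, Itgb1, Itga4 and Dnase2a on both sides.

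Some genes outside the list told the same cells apart. Every UMI of Cd5l (98), Timd4 (143), Spic (33), Mrc1 (23) and Cdh5 (33) in Mo/KC lay above the C1q limit, of which Cd5l, Timd4 and Spic are known from resident or red pulp macrophages. Cdh5 is an endothelial cadherin, and the mannose receptor gene Mrc1 was higher in EC (172 and 127 CPM) than in Mo/KC (23.6 and 7.91 CPM), the 1 Mo/KC marker of 12 that was not highest in Mo/KC. Below the limit lay all 519 UMIs of the monocyte gene Ly6c2, 221 of 232 UMIs of Ccr2, 7724 of 7730 of S100a8 and 940 of 946 of Mpo. S100a8 and Mpo mark granulocytes and their precursors, and they reached 6417 and 781 CPM there. The G markers summed to 5406 and 6042 CPM over all Mo/KC cells. Of the 6 EC markers 4 were detected in Mo/KC, with sums of 53.0 and 33.9 CPM, while Cldn5 and Kdr, at 855 and 824 CPM and at 343 and 369 CPM in EC, had no UMI in any Mo/KC cell. Slc40a1, the iron exporter, was at 702 CPM above the limit and 14.1 below, and Hmox1, which opens the heme ring, at 2317 and 104 CPM.

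Along the erythroid lineage the genes went different ways. Ery 1 and Ery 2 are the deposited subclusters of Ery, and Ery 3 to Ery 6 those of Eryb. The filter between Ery 6 and Ery 1 was passed by 4 genes, of which Itgb1 and Maea were called lower, like 74.9% of 5368 genes, and none was called higher, like 6.00%. Itgb1, at 9.14 and 3.53 CPM in Ery 6, passed the filter through Ery 1, so a difference was built into its passing. The median of all genes was -2.94 on the log2 scale. With globin left out it moved by 1.85 to -1.09, 49.1% of 6019 genes were called lower and 1085 of them higher, and Itga4 and Icam4 were then called higher.

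Icam4 had 110, 252, 495 and 651 CPM in Ery 1 to Ery 4 of library 1 and 122, 228, 376 and 425 CPM in those of library 2, so each of these subclusters stood above the one before it. Ery 5 had 707 and 387 CPM, and Ery 6 277 and 142 CPM. Ery 6 was 2.55-fold (2.39 to 2.73) and 2.73-fold (2.55 to 2.92) below Ery 5. With globin left out, the libraries drew nearer to each other: Ery 1 had 111 and 125 CPM, Ery 4 had 1024 and 994, Ery 5 had 1447 and 1450 and Ery 6 had 660 and 659. On this scale Ery 5 was the highest subcluster in both libraries, and Ery 6 was 5.95-fold and 5.28-fold above Ery 1. On all UMIs the same ratio was 2.52-fold (2.33 to 2.73) and 1.16-fold (1.07 to 1.26).

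The chains of the α4β1 integrin differed in course, with Itgb1 called lower in Ery 6 and Itga4 not called. Itga4 had 60.2 and 56.0 CPM in Ery 1, 49.5 and 47.6 in Ery 2, 100 and 75.3 in Ery 3, 113 and 73.8 in Ery 4, 66.8 and 35.2 in Ery 5 and 79.4 and 39.7 in Ery 6. The ratio of Ery 6 to Ery 1 was 1.32 (1.17 to 1.49) in library 1 and 0.708 (0.620 to 0.809) in library 2, so its direction on all UMIs depended on the library. With globin left out it was 3.11 and 3.22. Itgb1 had 81.1 and 75.1 CPM in Ery 1, 41.3 and 36.3 in Ery 3 and 9.14 and 3.53 in Ery 6, and was 8.88-fold (6.71 to 11.995) and 21.2-fold (15.1 to 30.8) lower at the end. The fall was 3.77-fold and 4.68-fold with globin left out. Against the median of all genes, Itga4 stood at 2.88 and 2.87 on the log2 scale and Itgb1 at -0.67 and -1.04.

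Maea fell from 99.7 and 94.9 CPM in Ery 1 through 44.6 and 34.0 in Ery 3 to 17.2 and 8.08 in Ery 6, which was 5.79-fold (4.70 to 7.20) and 11.7-fold (9.34 to 15.0). With globin left out the fall was 2.45-fold and 2.59-fold, and Ery 3 to Ery 5 lay between 47.5 and 57.0 CPM. Against the median of all genes its log2 ratio stood at -0.06 and -0.18. Dnase2a, below the filter here, had 11.04 and 12.6 CPM in Ery 1 and 7.20 and 5.75 in Ery 6. Axl had 6 and 7 UMIs in Ery 1 and 0 in Ery 6.

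**Figure D4:**
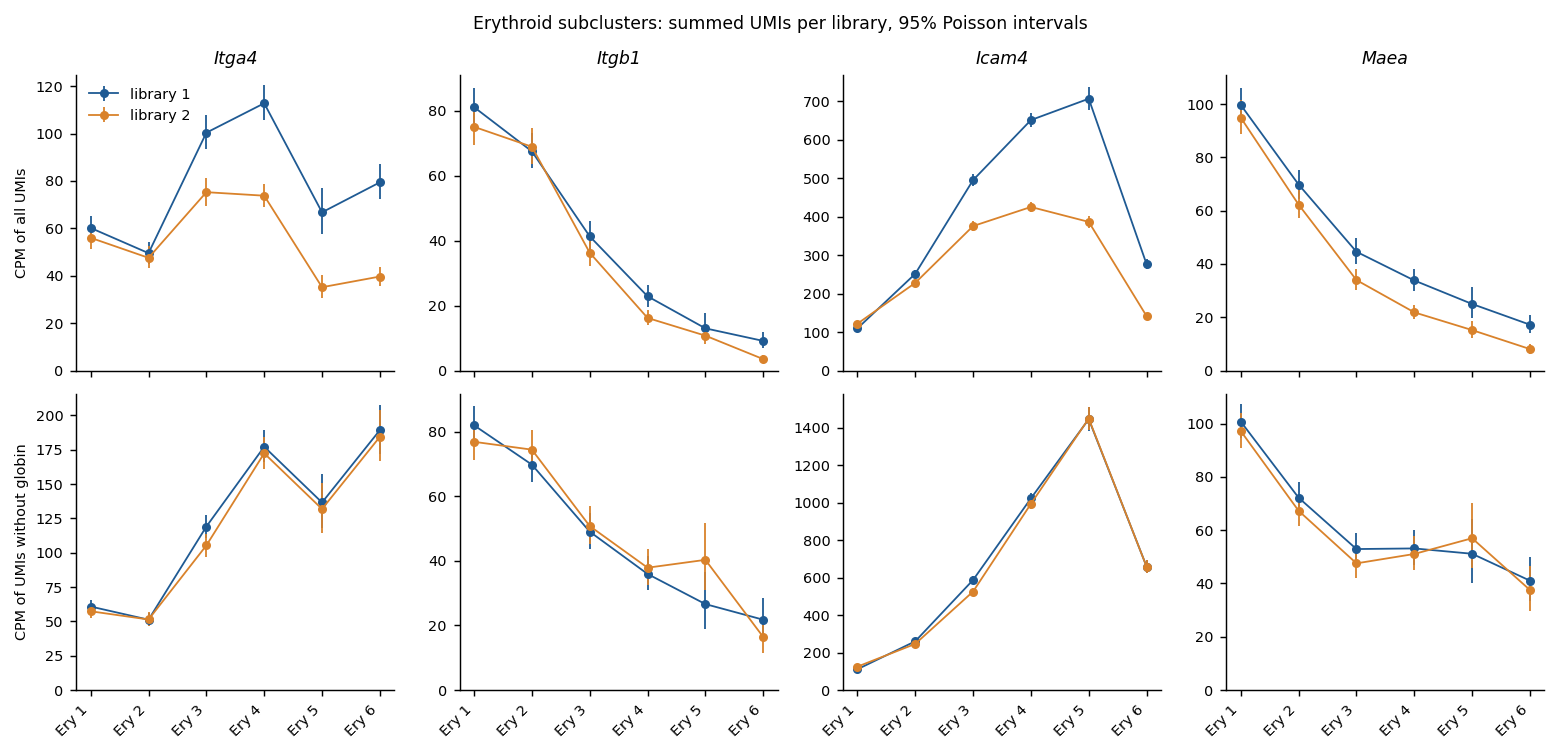
Itga4, Itgb1, Icam4 and Maea in Ery 1 to Ery 6, in CPM of all UMIs (upper row) and of UMIs without globin (lower row), each library with 95% Poisson intervals. Icam4 peaks at Ery 5 or Ery 4 and the curves of the libraries nearly coincide in the lower row, while Itgb1 declines in both rows.

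The pattern over 13 groups (Ery 1 to Ery 6 and the 7 types other than Ery and Eryb) was set against those of 6454 genes by Pearson's r of log2(CPM + 1), taking the lower of the 2 libraries. The groups share libraries, depth and globin content, so r is a description. For Icam4 the nearest genes were Cpox (0.984), Alad (0.979), both enzymes of heme synthesis, and Tspan33 (0.978). Itga4 was nearest to Snrnp25 (0.872), Cr1l (0.806) and Kctd14 (0.805), Itgb1 to Prkar1a (0.981), Csrp1 (0.966) and Gpr180 (0.965), and Maea to Ywhaz (0.988), Eno1 (0.987) and Arf1 (0.984). Gas6 was nearest to Maf (0.961), Dab2 (0.955) and Cdh5 (0.941), and Axl to Igf1 (0.911), Hpgd (0.888) and Plekho1 (0.864). Vcam1 had Fcgrt (0.917), Egr1 (0.902) and Cd302 (0.896), Mertk had Fcgrt (0.854), Nrp1 (0.829) and Stab1 (0.824), and Dnase2a had H2afj (0.777), Smpdl3a (0.745) and Wwp2 (0.695). No gene is listed for Siglec1, with its single UMI. The r values of Mertk rest on few UMIs, mostly in Mo/KC (3 and 9) and EC (2 and 4), with 0 in most other groups. Those of Gas6 rest on Mo/KC (18 and 6) and EC (10 and 7), with at most 3 UMIs in any other group. Those of Axl rest largely on Mo/KC (19 and 21), with at most 7 UMIs in any other group.

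Related genes were set against Eryb by the same rule, beside the 47.7% higher and 7.19% lower among all genes. Of 20 other engulfment genes 12 passed the filter and were called higher in Mo/KC, with a median log2 ratio of 8.69. Of these, 10 were under 10 CPM in Eryb of both libraries and passed through Mo/KC, so neither the count nor the median is support for a difference. C1qa (582 and 293 CPM against 0.948 and 0.113), C1qb and Timd4, a phosphatidylserine receptor, had the largest ratios, and Elmo1, Rac2 and Rac1, which move the actin cytoskeleton, the smallest (Rac1 3.75-fold and 5.91-fold). Of 12 digestion genes 8 passed and 7 were called higher (median 3.47), led by Hmox1, Lipa and Ctsl, with Lamp1, Ctsd and Ctsb last. Hmox1, Lipa and Ctsl were under 10 CPM in Eryb of both libraries and passed through Mo/KC. Their part in the count and the median is therefore not support for a difference. The protease gene Ctsb was not called, at 1.58-fold and 1.95-fold (log2 0.01 and -0.28 with globin left out), and rose from Ery 1 (135 and 128 CPM) to Ery 6 (1426 and 693 CPM).

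Of 12 further genes of the island macrophage 7 passed, 6 were called higher and 1 lower, and the 6 called higher were all under 10 CPM in Eryb. Among them Csf1r, Adgre1 and Ptprc had the largest ratios, and Spic and Itgb2 the smallest. The erythropoietin receptor Epor was lower, at 11.8 and 13.6 CPM against 174 and 122 in Eryb. Itgav, the αv chain that ICAM4 binds, failed the filter, with 10 UMIs in Mo/KC of each library (14.7 and 11.3 CPM). Of 10 genes of the erythroid side 6 passed, 2 were called higher (Cd44 and Spn) and 4 lower, namely Cd47, Bsg, Rhag and Epb42. Rhag, a channel protein of the Rh complex, was called higher in Ery 6 than in Ery 1. So was Epb42, a protein of the red cell membrane skeleton, whereas Cd44 and Spn were called lower. Cd44 and Spn were under 10 CPM in Eryb and in Ery 6 of both libraries. They passed through Mo/KC in the first comparison and through Ery 1 in the second, so a difference was built into their passing.

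Of the 10 other subunits of the CTLH ligase, 9 passed. Rmnd5b was called higher in Mo/KC than in Eryb, and Gid8, Ypel5 and Ranbp10 lower. The other 5, Armc8 and Gid4 among them, were not called, and the median over the 9 was -0.19. Rmnd5b, under 10 CPM in Eryb of both libraries, passed through Mo/KC. Within the erythroid lineage the subunits went both ways, beside 6.00% of all genes called higher in Ery 6 and 74.9% lower. Ypel5 (6.48 and 5.82 CPM in Ery 1, 226 and 117 in Ery 6), Ranbp10 and Wdr26 were called higher. Rmnd5b, Gid4 and Armc8 were called lower, as Maea was. Ypel5 was under 10 CPM in Ery 1 of both libraries, and Rmnd5b, Gid4 and Armc8 were in Ery 6. A difference was thus built into the passing of Ypel5, Rmnd5b, Gid4 and Armc8. Without globin UMIs, Armc8 lost its call (log2 0.02 and -0.48), Rmnd5b and Gid4 stayed lower, and 6 subunits were called higher in Ery 6. Of the 6019 genes tested without globin UMIs, 1085 were called higher in Ery 6 and 49.1% lower. On that scale Rmnd5b was not called in Mo/KC against Eryb (0.85 and 1.06). There 4 subunits were called lower, Wdr26 added, beside 16.7% of all genes.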

How the data were processed

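One E12.5 wild-type liver was analysed as 2 technical libraries. The deposited UMI counts per gene and barcode were made by the authors with Cell Ranger 2.1.1 on mm10 with GRCm38.92 (a header of library 1 names a later software version). The authors removed cells of fewer than 200 features, clustered with Seurat 3.2.0 and named the cell types by hand, which were used as deposited. The study's methods state that doublets were removed by sorting, which came before the droplets were formed. No doublet caller was run here, so cells that shared a droplet were not looked for. Cells were assigned to libraries by the suffix of their names.

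UMI counts were summed per type or subcluster and library and divided by the group's total (CPM), with exact 95% Poisson intervals. Ratios have exact conditional binomial intervals, and shares exact Clopper-Pearson ones. A count of 0 was set to 3 UMIs per library, and no ratio was formed with both counts at or under 3. Calls needed 2-fold in both libraries and a mean of 10 CPM. Globin genes were those named Hba- or Hbb-. The text names all 10 genes, the 3 most alike, and the 3 highest and lowest of each other list. The genes and lists were chosen with earlier results of these data known. Calculations used Python 3 with numpy, scipy and pandas, and were tested on simulated data. Positions came from GENCODE vM21. The alternatives tried on totals, cells, free RNA, folds, filters and libraries are given in the closing section.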

Additional observations from a re-analysis of the deposited data

Results flagged for a closer look

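Barcodes that were not called as cells but held at least 1000 UMIs and 200 genes carried UMIs of these genes, above the 3 that a count of 0 allows. Library 2, whose smallest kept cell had 4387 UMIs, had 3311 such barcodes, and they held 27 Vcam1, 248 Itga4, 308 Itgb1, 1478 Icam4, 269 Maea, 103 Dnase2a and 6 Axl UMIs. Library 1 had 168, with 38 Itga4, 9 Itgb1, 226 Icam4, 7 Maea and 6 Dnase2a UMIs, and 1 of Vcam1. In library 2, 44 of the barcodes lay over 1000 CPM of the C1q genes, against 16 kept cells, and in library 1 none did. The 44 had a median of 1779 UMIs, 4025 at most, and at least 2 C1q UMIs each. Together they held 17 of the 27 Vcam1 UMIs (195 CPM, 113 to 312), 12 of Dnase2a (137 CPM, 71.0 to 240), 5 of Axl (57.3 CPM, 18.6 to 134), 1 of Mertk and 0 of Gas6 and Siglec1. Timd4 (31 UMIs), Cd5l (53), Spic (18) and Adgre1 (20) were found in them, as was Icam4 (13 UMIs, 149 CPM). The globin gene Hbb-bs made up 96768 CPM of them (8450 UMIs), against 18007 CPM in the 16 kept cells over the C1q limit and 167506 CPM in free RNA of library 2, and its part in these counts was not tested. Free RNA held 24.5 CPM of C1q and 1.02 CPM of Vcam1 in library 2.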

How the results depend on the processing

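Of 65 recomputed counts, 54 stayed within 1.5 times the reported one. For the 5 genes called higher in Mo/KC, the count was 2 with globin left out of the totals or at 4-fold (Vcam1 and Axl) and 3 with Ery and Eryb together, and 5 to 6 without 1 library. For the 1 called lower it was 2 with globin left out and 1 to 2 without 1 library, where Itga4 joined Icam4 in library 1 alone. For the 1 gene highest in Mo/KC it was 2 with a mean of at least 1 CPM or no filter (Axl), and 1 to 1 without 1 library. For the 0 called higher in Ery 6 it was 2 with globin left out, 1 when cells needed 1000 genes and less than 10% mitochondrial UMIs, 1 with Ery 5 in its place, and 0 to 1 without 1 library, where Icam4 was called in library 1 alone. The 2 called lower in Ery 6 stayed 2 in every setting, though Itgb1 passed the filter of 10 CPM through Ery 1. No gene called between Mo/KC and Eryb or between Ery 6 and Ery 1 changed the sign of its log2 ratio. Among genes not called, Ery 6 over Ery 1 changed sign with globin left out for Itga4 (-0.05 to 1.66) and Dnase2a (-0.87 to 0.84). For Itga4 it also did with the limits on genes and mitochondrial UMIs (0.41) and in library 1 alone (0.40). Axl had 0 UMIs in Ery 6 of both libraries, so its values rest on 0 set to 3 UMIs. They were -0.76 in the main setting, 0.95 with globin left out and 1.60 with those limits, and give no direction. The limit on globin in Mo/KC cells and the other C1q limits were chosen after seeing the data; at 3000 CPM, 36 of the 47 Vcam1 UMIs and all 24 of Gas6 lay above. The causes were not tested, other than what each setting leaves out. No paired analysis was possible because both libraries come from the same liver under a single condition and no result rests on a test. Depth limits Siglec1, Mertk and Gas6, each with at most 24 UMIs in Mo/KC. Of the recomputed log2 ratios, 24 of 72 for Mo/KC over Eryb moved by more than the standard deviation of the libraries. For Ery 6 over Ery 1 it was 11 of 48. Shares of cells with a UMI were given at full depth and depend on it. With Mo/KC cells thinned to 3600 UMIs, the mean share of the libraries was 18.7% for Dnase2a and 29.8% for Maea.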
